A study of Canis lupus familiaris with 10 samples.

Results

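BNC1 (ENSCAFG00000013219) and CRB2 (ENSCAFG00000046633) are 2 of the 31897 genes in the expression table of canine atrial tissue, and both stand in a list of 20 genes that the study drew from its comparison of the CPVA group with the control group. That list pairs their identifiers with symbols, and a place on it is not taken here as a significant difference. By the values printed there, CRB2 met the study's limit on the corrected p and BNC1 did not. The 2 genes were thus chosen by their rise in the CPVA group against the control group, which the study compared with DESeq2. That rise is described here in FPKM without a test. The RNA came from the target atrial tissue of 10 beagle canines, male or female. In the CPVA group (n = 5), the chest was opened on the right side and circumferential pulmonary vein ablation (CPVA) was done with a radiofrequency catheter along the root of the left pulmonary vein. In the control group (n = 5), the chest was opened in the same way without ablation, so that all 10 canines had a thoracotomy. The sample was cut 6 months after the operation from the tissue up to 1 cm away from the line of ablation. The sources used here do not say which canine was male or female.

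BNC1 encodes basonuclin 1, a zinc finger transcription factor known from the dividing basal cells of stratified epithelia, from germ cells and from mesothelial cells. CRB2 encodes a member of the Crumbs family, transmembrane proteins that mark the apical side of polarized epithelial cells and take part in placing their junctions, and it is best known from kidney podocytes, the retina and the early embryo. The heart is covered by the epicardium, a sheet of mesothelial cells that is an epithelium in form, with an apical side facing the pericardial cavity, and atrial muscle itself is made mostly of myocytes, fibroblasts and vessel cells. Neither gene is a usual gene of heart muscle cells.

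The libraries held 15120163 to 25592249 reads assigned to genes, the fewest in CPVA3. CPVA3 also had the most even spread of reads over genes, with 17.7% of its reads on its 10 most abundant genes against 24.7% to 32.5% in the other 9 libraries. The level of a gene is given in FPKM, its count of fragments scaled to both its length and the total of the library, and the whole reads behind each value were worked out from the steps between values. The FPKM values rest on a length of 4764 bases for BNC1 and 4274 bases for CRB2.

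BNC1 was read mainly in 2 canines of the CPVA group. It had 167 reads in CPVA3 and 71 reads in CPVA2, which correspond to 2.32 and 0.582 FPKM. CPVA5 had 7 reads (0.0656 FPKM), CPVA4 had 1 read (0.0105 FPKM) and CPVA1 had 0 reads. In the control group, Control1 had 2 reads (0.020 FPKM), Control3 had 1 read (0.00820 FPKM), and Control2, Control4 and Control5 had 0 reads. The groups overlapped, because CPVA1 and CPVA4 lay within the range of the control libraries, while CPVA2, CPVA3 and CPVA5 lay above it. A library with 0 reads allows up to 3 reads as a one-sided floor, or 0.0275 to 0.0317 FPKM of BNC1 in the libraries concerned; the upper bound of the two-sided exact 95% interval used for the other libraries is 3.69 reads, or 0.0338 to 0.0389 FPKM. This floor and the intervals on reads hold for counting error alone, as reads copied by PCR are not separate molecules.

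CRB2 followed the same libraries. CPVA3 had 231 CRB2 reads, or 3.57 FPKM, and CPVA2 had 86, or 0.786 FPKM. CPVA5 had 9 reads (0.0940 FPKM), CPVA4 had 2 reads (0.0234 FPKM) and CPVA1 had 0 reads. In the control group, Control1 had 1 read (0.0111 FPKM) and the other 4 libraries had 0 reads, which allows up to 0.0274 to 0.0353 FPKM in each by the same floor of 3 reads. CPVA2, CPVA3, CPVA4 and CPVA5 therefore lay above the control libraries, CPVA4 by 1 read, while CPVA1 tied with 4 of them. CPVA1 had no read of either gene among its 20382186 reads.

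**Figure D1:**
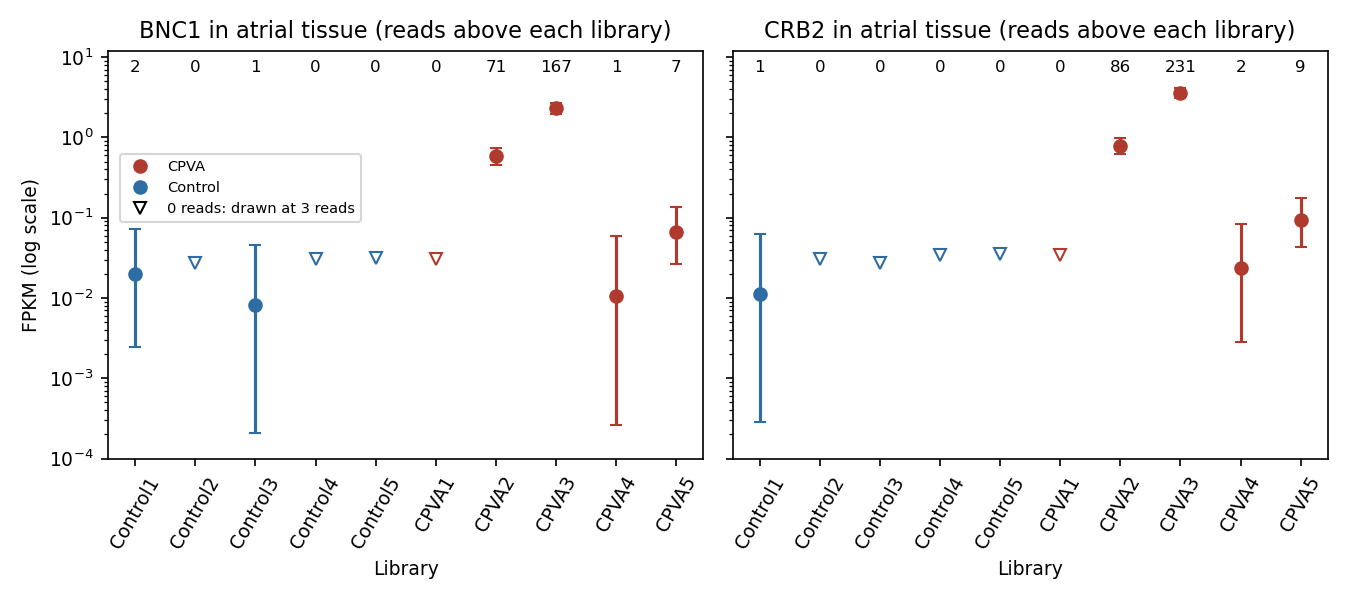
FPKM of BNC1 (left) and CRB2 (right) on a log axis in each of the 10 libraries, with exact 95% counting intervals as bars and the reads printed above; open triangles stand at 3 reads for libraries with 0 reads. CPVA3 is highest and CPVA2 second for both genes, CPVA5 follows, and the control libraries have at most 2 reads.

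The first steps in this order were wider than counting error for both genes. Scaled to the library totals, BNC1 was 3.98 times higher in CPVA3 than in CPVA2 (exact 95% interval 3.0 to 5.33) and 8.88 times higher in CPVA2 than in CPVA5 (4.09 to 22.9). For CRB2, the same steps were 4.55 (3.53 to 5.89) and 8.37 (4.21 to 18.9). Below CPVA5, neighbouring libraries with reads were not told apart at this depth. BNC1 was 3.28 times higher in CPVA5 than in Control1, with an interval of 0.625 to 32.4, and CRB2 was 4.02 times higher in CPVA5 than in CPVA4, with an interval of 0.831 to 38.2. Each of these intervals compares 1 library with another, not the groups.

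The small signal in CPVA5 was seen in both genes. Against the summed reads of the 5 control libraries, 3 for BNC1 and 1 for CRB2, the reads in CPVA5 scaled to the library totals were 11.4 times higher for BNC1 and 44.1 times higher for CRB2. The same ratios for CPVA4, with 1 and 2 reads, were 1.83 and 10.98. These ratios describe 1 library against few reads and carry no estimate of the spread between canines, so that no call is drawn from them. CPVA5 was still far below CPVA3, which was 35.4 times higher for BNC1 (16.8 to 89.3) and 38.0 times higher for CRB2 (19.7 to 84.3).

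The mean level of BNC1 was 0.595 ± 0.993 FPKM after CPVA against 0.00564 ± 0.00877 FPKM in the controls. The mean level of CRB2 was 0.896 ± 1.53 against 0.00223 ± 0.00498 FPKM (SD, n = 5 per group). The SD of the CPVA group exceeded its mean for both genes. On the log2(FPKM + 0.1) scale, the difference between the groups was 1.57 for BNC1 (standard error 0.81 from limma) against an SD of 1.99 within the CPVA group, and 1.89 for CRB2 (standard error 0.89) against an SD of 2.21. The difference was thus smaller than the spread between the canines of the CPVA group. Without CPVA3, it was 0.84 for BNC1 and 1.07 for CRB2. The pseudocount of 0.1 makes these differences smaller than the ratio of means, since most control values are 0. Summed over libraries and scaled to their totals, the reads of the CPVA group were 87.0 times the control group for BNC1 (246 against 3 reads) and 348 times for CRB2 (328 against 1 read). Without CPVA2 and CPVA3, a choice made after seeing the data, 8 BNC1 and 11 CRB2 reads were left in the CPVA group, and these ratios were 4.66 and 19.2. No interval is given for them, since the 2 genes were chosen by this contrast. In bulk tissue, a different number of cells that carry a transcript and a different amount of it per cell cannot be told apart.

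The study's list did not rest on the split of reads between the 2 genes within a library. They were paired here, however, with earlier results of these data known, so the split is given as a description. The other 16 listed genes highest in CPVA3 had 20.9 to 31.65% of that level in CPVA2. A similar split in CPVA2 and CPVA3 is therefore not particular to this pair. In each library with at least 10 reads of the 2 genes together, CRB2 took slightly more than BNC1. Its share was 54.8% of 157 reads in CPVA2 (exact Clopper-Pearson 95% interval 46.6 to 62.7%), 58.0% of 398 reads in CPVA3 (53.0 to 62.9%) and 56.25% of 16 reads in CPVA5 (29.9 to 80.2%). The share of each of these 3 libraries lay within the intervals of the other two, and that of CPVA5 was the least closely estimated. By Fisher's exact test, two-sided, p was 0.506 for CPVA2 against CPVA3, with an odds ratio of 0.876 (95% interval 0.594 to 1.29). The tests of CPVA2 and CPVA3 against CPVA5 gave odds ratios of 0.942 (0.283 to 3.01) and 1.08 (0.333 to 3.32), and after Benjamini-Hochberg adjustment p was 1.0 for each of the 3 pairs in Fisher's exact test. No difference in the split was found, but no conclusion is drawn from this. The pair was chosen with earlier results known, and the other listed genes had a similar split between CPVA2 and CPVA3. With 16 reads in CPVA5, a change of the odds as large as these bounds could not have been seen. These tests compare libraries and not conditions.

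Per length, the estimated ratio of CRB2 to BNC1 was similar in the 3 libraries with at least 10 reads, though only in CPVA3 did its interval lie above 1. The ratio of CRB2 to BNC1 FPKM was 1.35 in CPVA2 (0.975 to 1.88), 1.54 in CPVA3 (1.26 to 1.89) and 1.43 in CPVA5 (0.475 to 4.53), a mean of 1.44 ± 0.0961 (SD over 3 libraries). The overall level of the pair changed 35.4- to 38.0-fold between CPVA5 and CPVA3 while the estimates of this ratio lay between 1.35 and 1.54. The interval in CPVA5 was too wide to show that the ratio stayed the same. With the reads of the 3 libraries pooled, the ratio was 1.48 (1.25 to 1.76). CPVA4 with 2 CRB2 reads and 1 BNC1 read, Control1 with 1 and 2 reads, and Control3 with 0 and 1 reads were too thin for a ratio.

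**Figure D2:**
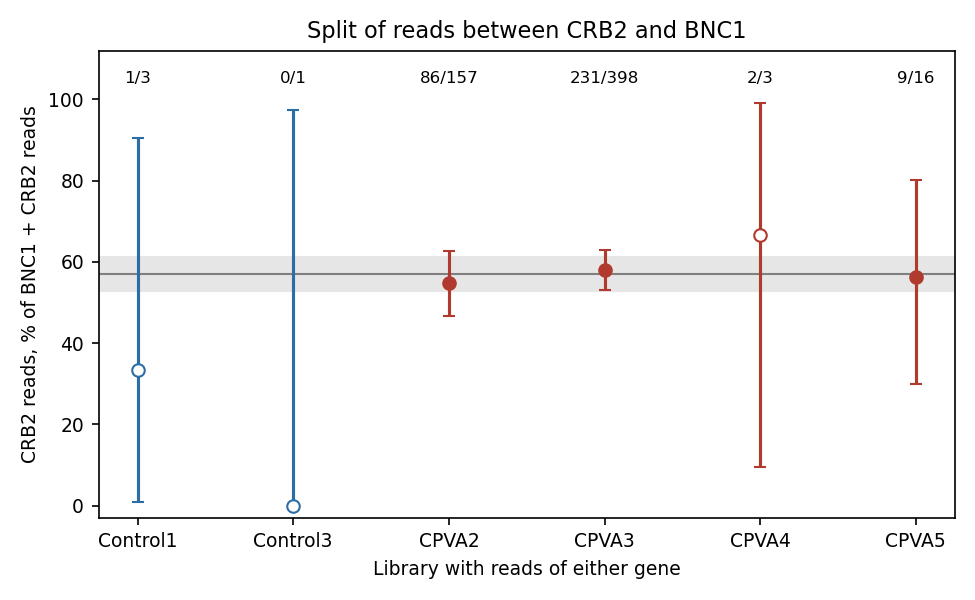
CRB2 reads as a percent of the BNC1 and CRB2 reads in each of the 6 libraries with reads of either gene, with exact 95% intervals and the reads printed above; open points have fewer than 10 reads. The line and grey band show the pooled 57.1% (52.9 to 61.2%) of the 3 libraries with filled points, whose shares lie between 54.8% and 58.0%.

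The order of libraries seen for BNC1 and CRB2 was shared by many genes. Of the 19222 genes whose FPKM averaged 0.1 or more, 3160 (16.4%) had CPVA3 highest and CPVA2 second, and 489 (2.54%) also had CPVA5 in place 3, as both genes had. Both genes were also among the 210 genes (1.09%) whose FPKM in CPVA3 was at least 20 times that in each library other than CPVA2. These shares are given as the background for the contrast that chose the 2 genes, and nothing is read from them.

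Of the 20 genes on the list, 18 were highest in CPVA3, and each of these had CPVA2 second. BNC1 and CRB2 were low within this set: among the other 16 genes, FPKM in CPVA3 ranged from 1.98 to 238.4 with a median of 96.7, and 15 of them were above both. CPVA2 held 25.1% of the FPKM of CPVA3 for BNC1 (exact 95% interval 18.8 to 33.3%) and 22.0% for CRB2 (17.0 to 28.3%). The other 16 genes had 20.9 to 31.65% with a median of 25.5%, and the intervals of all 16 overlapped those of BNC1 and CRB2.

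Relative to CPVA3, the level in CPVA5 was higher for BNC1 and CRB2 than for most of this set. CPVA5 held 2.83% of the FPKM of CPVA3 for BNC1 (1.12 to 5.96%) and 2.63% for CRB2 (1.19 to 5.08%), against a median of 0.148% for the other 16 genes. For 12 of these 16 genes, the whole interval lay below those of BNC1 and CRB2, for 3 it overlapped them, and for 1, EREG, it lay above. EREG, which encodes the growth factor epiregulin, had 24.1% (20 reads in CPVA5). CCL20, a chemokine gene, and IGLV2-33, an immunoglobulin light chain gene, had 0 reads in CPVA5, which left upper bounds of 2.09% and 1.32% and so an overlap with both genes, and IL1B, which encodes interleukin 1 beta, had 0.0272% (1 read). The third overlapping gene was the protease gene CTSE, with 0.931% (2 reads). NDST4, a heparan sulfate enzyme gene, and SPOCK3, a proteoglycan gene, were the 2 genes of the list that were highest in CPVA5 itself, with 0.680 and 2.98 FPKM there against 0.0380 and 0.774 FPKM in CPVA3. These are shares of the level in CPVA3, which was higher for 15 of the other 16 genes than for BNC1 and CRB2. In FPKM within CPVA5 itself the order was different, and most of the other 16 genes lay above both BNC1 (0.0656 FPKM) and CRB2 (0.0940 FPKM). Among these were PPBP, a platelet chemokine gene (1.19 FPKM), EREG (0.478 FPKM) and SAA1, an acute phase gene (0.310 FPKM). CCL20 and IGLV2-33, with 0 reads, were among those below both. These intervals compare reads within libraries, and with 1 library of each kind they do not compare conditions. As the pair was chosen with earlier results of these data known, nothing is read from the count of 12. The listed genes are also a narrow background. Among the 126 genes of the whole table described under Other observations, the median share in CPVA5 was 0.882%. There, 13 genes had a higher share than BNC1 and 15 a higher share than CRB2.

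**Figure D3:**
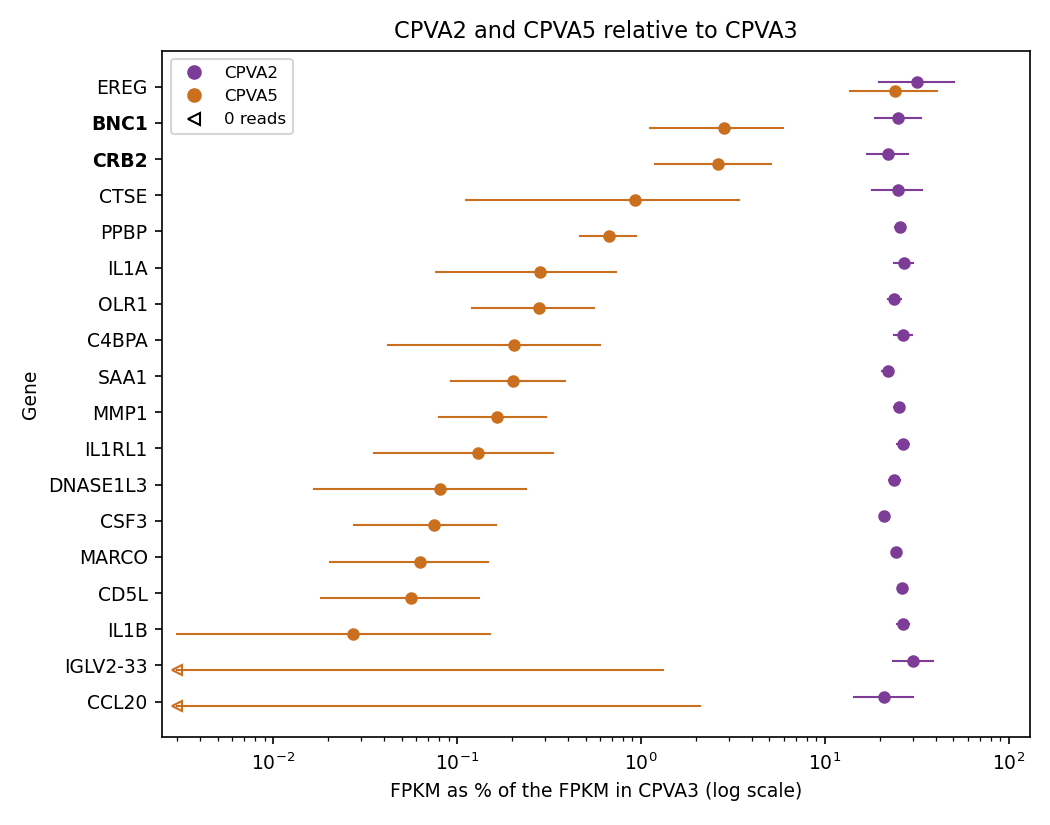
FPKM in CPVA2 and CPVA5 as a percent of the FPKM in CPVA3, on a log axis with exact 95% intervals, for the 18 listed genes that were highest in CPVA3; BNC1 and CRB2 are in bold. The CPVA2 points form a column between 20.9 and 31.65%, whereas the CPVA5 points spread from 0 to 24.1%, with BNC1 at 2.83% and CRB2 at 2.63% below EREG alone.

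Over the 10 libraries, each of the 2 genes was the gene most like the other. Likeness was measured as the Pearson correlation of log2(FPKM + 0.1) with each of the other 19221 genes tested, as a description without a p, because the libraries share depth and composition and 2 of them carry most of the range. Between BNC1 and CRB2 it was 0.999, and no other gene had a higher value with either. The 2 genes were paired with earlier results of these data known, and both were chosen for a rise that CPVA2 and CPVA3 carry. Their likeness is therefore not read as a link between them. With a pseudocount of 0.1, the correlation also depends on the level of a gene, and both were low within the list. The median over all genes was 0.361 for BNC1 and 0.364 for CRB2, so that most genes had a positive value. Values from 0.9 upward were held by 944 genes for BNC1 and 962 genes for CRB2. Over all genes tested, OLR1, the gene of a receptor for oxidized low density lipoprotein, was only in place 35 for BNC1 and 21 for CRB2. Among the other 18 listed genes, it was the most like both genes (0.986 with each). CCL20 and C4BPA, which encodes a binding protein of the complement system, followed, with 0.982 each for BNC1 and 0.979 and 0.981 for CRB2. NDST4 was the least like both (0.339 and 0.364), but by Spearman's rho it was in place 2 of the 18 for BNC1 (0.820) and in place 4 for CRB2 (0.821), and DNASE1L3, a gene of an extracellular DNase, was the least like both (0.231 and 0.381). Without CPVA3 (0.996) or without CPVA2 (0.998), each of which kept the other of these 2 libraries, the 2 genes stayed each other's nearest. With a pseudocount of 0.01 they did so as well (0.990). By Spearman's rho, which gives the many ties at 0 reads full weight, the value between them was 0.954. CRB2 was then at place 5 for BNC1 and BNC1 at place 4 for CRB2.

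**Figure D4:**
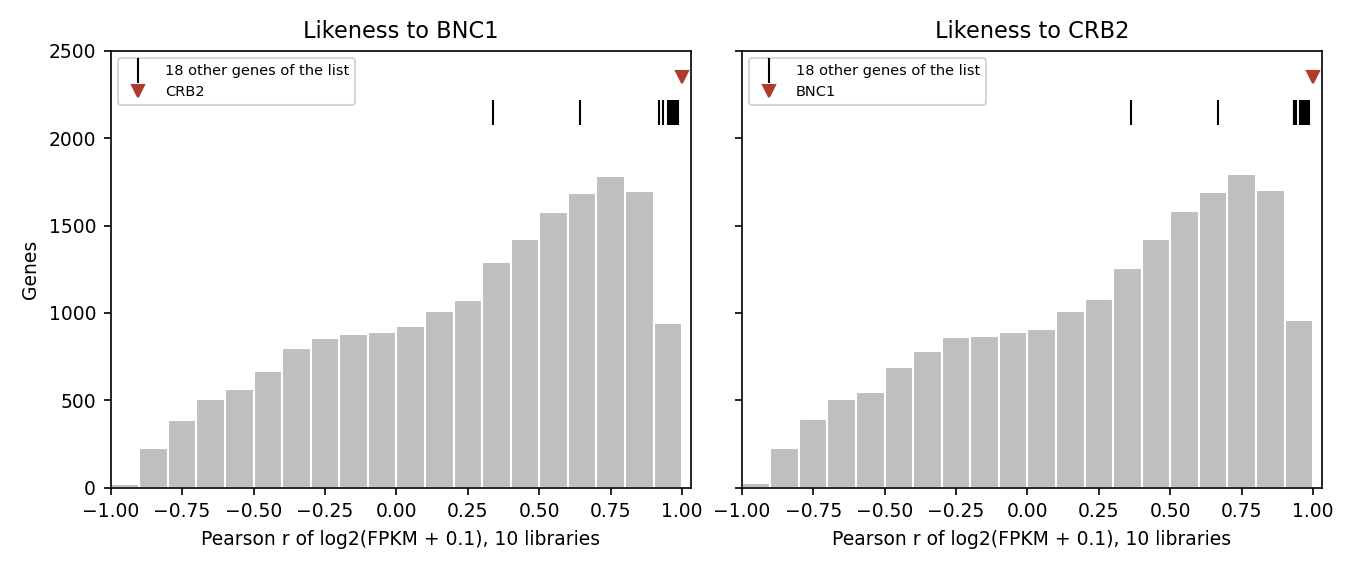
Number of genes by the Pearson correlation of their log2(FPKM + 0.1) with BNC1 (left) and CRB2 (right) over 10 libraries; ticks mark the 18 other listed genes and the triangle marks the partner gene. The partner stands at 0.999 in both panels, to the right of all ticks, and 16 of the 18 ticks lie above 0.9.

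Even where they were highest, BNC1 and CRB2 were not abundant transcripts of the sampled tissue. In CPVA3, BNC1 lay above 41.7% and CRB2 above 48.3% of the genes with reads in that library. In CPVA2 these places were 29.9% and 33.1%, and in CPVA5 they were 9.39% and 12.3%, all compared per length in FPKM. The label of epithelial or mesothelial genes could not be checked against the tissue. Of the 17 listed markers of mesothelium and epicardium, 8 of epithelium and 6 of lung epithelium, 0 carry an identifier in the sources used here, and the same holds for the markers of atrial myocytes, fibroblasts and endothelium. The values therefore show transcripts of 2 genes known from epithelia mainly in CPVA2 and CPVA3, with few reads in CPVA4, CPVA5, Control1 and Control3, and they do not show which cells held them. Of the 5 macrophage markers listed, 2 carry an identifier, MARCO and CD5L. Both carry one because they stand on the study's list, so the same contrast chose them. The other macrophage markers could not be seen. The summed FPKM of MARCO and CD5L ranged from 0 to 432.5 in the CPVA group, with the highest value in CPVA3. In the control group it ranged from 0.0742 to 0.387. Like most genes of that list, they were high in CPVA2 and CPVA3, so nothing is read from this likeness to BNC1 and CRB2. In CPVA5, MARCO had 0.150 FPKM and CD5L had 0.110 FPKM, each within the range of its control libraries, whereas BNC1 and CRB2 lay above theirs. For BNC1 this was 7 reads against 2 in Control1, a step not told apart by counting. Of the other 16 listed genes highest in CPVA3, 4 also lay above their control libraries in CPVA5, OLR1 among them. The part of MARCO and CD5L in the result, and that of the spread of reads in CPVA3, was not tested.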

How the data were processed

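Total RNA was extracted from atrial tissue with TRIzol, and poly(A) RNA was drawn out on oligo(dT) beads. Per gene and library, the authors deposited 1 FPKM value; the submitters' processing notes name CASAVA, HISAT2, featureCounts and the build CanFam3.1, without versions, and the study tested DEGs with DESeq2. Strand and the annotation release are not given in the sources used here, so reads of overlapping antisense genes cannot be told apart. All 10 columns were matched to samples by name.

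Whole reads, gene lengths and library totals were worked out from the steps between FPKM values, within 0.002 of a whole number, for all 27638 genes with reads; reads are the smallest that the values allow. Library totals of 15120163 to 25592249 reads limit the precision of low values. log2(FPKM + 0.1) was fitted across the 19222 genes whose FPKM averaged 0.1 or more with limma (version 3.58.1, trended eBayes, R 4.3.3), for the difference and its standard error only. Fisher's exact tests and exact 95% intervals were computed with scipy 1.17.1 in Python 3.11.15. The scripts were tested on simulated data.

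BNC1 and CRB2, the marker lists and the comparisons were chosen with earlier results of these data known. Named genes were BNC1 and CRB2 and, among the other 18 genes of the study's list, the 3 most like each of them and the 3 highest and 3 lowest in CPVA5 relative to CPVA3; CTSE, PPBP, SAA1, DNASE1L3, MARCO and CD5L were named after their values were seen. The gene reference at hand (assembly UU_Cfam_GSD_1.0) matched 0 of 30424 Ensembl identifiers, so the lists of markers could not be scored, apart from MARCO and CD5L; the lists of podocytes, neutrophils, partners of CRB2 and the paralog BNC2 had 0 genes with an identifier. No protein or promoter sequence was used here. Alternatives covered the pseudocount, the filter, library scaling, a block on the replicate number and leaving out each library.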

Additional observations from a re-analysis of the deposited data

Results flagged for a closer look

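Before any log was taken, CPVA3 was far from the rest of its group for BNC1 and for CRB2. The gap between CPVA3 and CPVA2 was 0.749 of the range of the group for BNC1 and 0.78 for CRB2, above 0.71, the 95% limit that Dixon's test sets for groups of 5. On the log2(FPKM + 0.1) scale these gaps were 0.397 and 0.395, below that value. Among the controls, CRB2 in Control1 was separated by a gap of 1.0 of the range, which is 1 read against 0 in the other 4 libraries. A gap of 1.0 is fixed wherever only 1 library of a group has reads, so that flag was no test. In all, 3 of the 4 groups tested were flagged. Chance flags about 1 in 20 groups of normally spread values, a rate that need not hold for FPKM values near 0. The 2 genes also share their libraries, and the study chose them for the rise that CPVA3 shows.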

How the results depend on the processing

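Of 73 alternative values, 69 lay within the spread between replicates or the counting interval of the value reported (counts within 1.5 times) and 0 changed direction. For the ratio of mean FPKM, this spread was 176 for BNC1 and 688 for CRB2, larger than the ratios themselves. No fall of these ratios short of a reversal could therefore count as a move, and the 69 do not show that the ratios were stable. With a pseudocount of 0.01, the log2 difference rose to 3.05 for BNC1 and 3.77 for CRB2, because most control values are 0. With a pseudocount of 1, it fell to 0.49 for BNC1 and 0.64 for CRB2. These falls count among the 69, because the spread between replicates was wider still, so the 69 do not show that the log2 differences were stable either. By Spearman's rho, OLR1, CCL20 and C4BPA, the 3 listed genes most like BNC1 and the 3 most like CRB2, kept 0 of these 6 places. Leaving out one library at a time, the log2 difference ranged from 0.84 to 1.98 for BNC1 and from 1.07 to 2.37 for CRB2, with the lowest value without CPVA3 in both. The ratio of mean FPKM, 105.6 for BNC1 and 402 for CRB2, ranged from 29.2 without CPVA3 to 290.3 without Control1 for BNC1 and from 101.4 without CPVA3 to 503 without CPVA1 for CRB2. Without Control1, CRB2 had 0 reads in the control group and no ratio was computed. With each control library set to a floor of 3 reads, the ratios were 20.6 and 27.8. The number of genes with CPVA3 highest and CPVA2 second fell from 3160 to 2152 with median-of-ratios scaling, where CPVA3 had the largest factor, 1.24. With the replicate number as a block, the differences stayed 1.57 and 1.89 with standard errors of 0.77 and 0.84. Same-numbered libraries did not deviate together (correlations from -0.198 to 0.0893, and 0 of 5 control libraries correlated best with their own number). No pairing of canines by number was thus seen, but 5 libraries per group cannot exclude it. The depth limits what can be said of CPVA1, CPVA4, CPVA5 and the control libraries, where each gene had at most 9 reads.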

Other observations

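Over the whole table, 126 genes had 100 or more reads in CPVA3 with an FPKM there of at least 20 times that in each library other than CPVA2, limits that were chosen after the values were seen and that cap the FPKM in CPVA5 at 5% of that in CPVA3. BNC1 and CRB2 are among them. The FPKM in CPVA2 was 20.1 to 30.9% of that in CPVA3 for the central 90% of these genes (median 25.7%), and 75 of them had a higher share than BNC1 and 106 a higher share than CRB2. In CPVA5, the median share was 0.882%, and 13 genes had a higher share than BNC1 and 15 a higher share than CRB2. In the RefSeq annotation of the assembly UU_Cfam_GSD_1.0, the 2 genes lie on different chromosomes.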
